A study of Mus musculus with 8 samples.

Results

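The genes described here are 10 nuclear genes for mitochondrial chaperones and proteases, Hspd1, Hspe1, Hspa9, Dnaja3, Lonp1, Clpp, Clpx, Afg3l2, Yme1l1 and Oma1, taken by their symbols from the 32285 genes counted. Nuclei from cryopreserved whole hearts were sequenced for 4 male WT mice and 4 male Taz-KO mice, each 9 weeks old and with a library of its own. Taz-KO mice were knocked out for Tafazzin (Taz), the enzyme that remodels the mitochondrial lipid cardiolipin, and WT mice were the controls. How the allele was built, the strain and whether the mice were littermates are not given in the sources used here. The mouse is the replicate, and 5 cell types were compared: cardiomyocytes, fibroblasts, endothelial cells, macrophages and adipocytes.

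Most mitochondrial proteins are made in the cytosol and threaded into the organelle unfolded. Hspa9, the matrix Hsp70 also called mortalin, pulls them in. Dnaja3 is a J-protein that works with Hspa9 in the matrix. The chaperonin formed by Hspd1 (Hsp60) and its lid Hspe1 (Hsp10) folds the imported proteins. Lonp1 and the pair of Clpx, an unfoldase, and Clpp, its peptidase, degrade damaged or unassembled matrix proteins. In the inner membrane, Afg3l2 is a subunit of the m-AAA protease, Yme1l1 forms the i-AAA protease, and Oma1 is a stress-activated peptidase that cuts the fusion protein Opa1 and the messenger Dele1. Transcription of several of these genes is known to rise when mitochondrial protein folding or import is disturbed.

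The promoters of Hspd1, Hspe1 and Lonp1 are shown. These genes rose in Taz-KO mice in at least 1 cell type below, and a promoter window of each held a match to a motif searched. Dnaja3 rose as well, and its window held no match to any motif searched. That window (chr16:4683820-4684119) lies inside the gene as placed below, whose start at chr16:4639989 was not searched. Hspa9 also rose, but no window was at hand for it. The motifs searched were chosen after those results were seen. Hspd1 (ENSMUSG00000025980, chr1:55077835-55088243, minus strand) and Hspe1 (ENSMUSG00000073676, chr1:55088132-55091307, plus strand) lie head to head and their annotated ends overlap by 112 bases (GENCODE vM21, GRCm38). Whether reads in that overlap were assigned by strand is not given in the sources used here, and both genes have near-identical pseudogenes whose share of the reads was not tested, so that their counts are uncertain to that extent. The stretch below, from RefSeq on GRCm38.p6, is chr1:55088053-55088082 on the plus strand, which lies within an exon of Hspd1. Its capitals mark 2 overlapping matches to a heat shock element, searched on both strands as the blocks TTC, GAA and TTC with 2 bases of any kind between neighbours.
Hspe1 and Hspd1: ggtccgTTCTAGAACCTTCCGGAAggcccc
The matches begin at positions -89 and -84 from the RefSeq start of Hspe1 and, read on the other strand, at -144 and -139 from the inner of the 2 RefSeq starts of Hspd1. From the outer start, which lies at the end of the gene given above, they are downstream and outside the window. The element was in 198 of 32851 promoter windows of 300 bases (0.603%), and in 2 of the 9 windows of the members, that of Hspe1 and the inner of the 2 windows of Hspd1. These 2 windows overlap and hold the same matches, so they are not separate finds. Windows were at hand for 8 of the 10 members, and not for Hspa9 and Afg3l2.

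Lonp1 (ENSMUSG00000041168, chr17:56614297-56626887, minus strand) has no such element in its window. The stretch shown runs from chr17:56626903-56627022 on the minus strand and ends at the RefSeq start of the gene. Capitals mark TGACGTNA, the letters of a site for ATF and CREB factors, again searched on both strands.
Lonp1: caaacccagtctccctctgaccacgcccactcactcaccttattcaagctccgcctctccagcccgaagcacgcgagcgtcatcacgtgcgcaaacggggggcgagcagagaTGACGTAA
This motif was in 963 of 32851 windows (2.93%) and in 1 of the 9 windows of the members. Another motif, TGATGNAA, which covers the letters of the composite site of Atf4 and Ddit3, was in 1304 windows (3.97%) and in 0 of the 9. A match in these letters is a description of the sequence and not a measured binding site.

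The files held 169193 barcodes, from 3492 in Taz-KO replicate 4685 and 5571 in Taz-KO replicate 5301 to 36308 in Taz-KO replicate 4910. In 6 of the 8 libraries the barcodes outnumber the nuclei that the study's methods give per heart. Total UMIs ranged from 20025456 to 348080773 per library, and any pair of libraries shared 0.0573% to 1.04% of the barcodes of the smaller. After filters and removal of 16231 likely doublets, 151264 barcodes were clustered and are called nuclei here. Whether all of them are nuclei was not tested. Of these, 99966 fell in clusters named as the 5 cell types by their marker genes. The share of nuclei given the same type singly by a pair of markers varied widely. It ran from 5.26% in adipocytes of Taz-KO replicate 4685 to 97.8% in cardiomyocytes of WT replicate 4909. In cardiomyocytes it was lowest in 4685, at 37.65%. The pair gave another type to at most 67 nuclei of a cell type in a mouse. Cardiomyocytes numbered 29220, fibroblasts 38541, endothelial cells 19272, macrophages 12050 and adipocytes 883. All 7 cardiomyocyte markers, among them Ryr2 and Ttn, were detected in cardiomyocytes of both genotypes, as were all 5 adipocyte markers in adipocytes. The same 7 were also detected in adipocytes and the same 5 in cardiomyocytes, so detection in a sum cannot tell these cell types apart. Adipocytes came down to 19 nuclei in Taz-KO replicate 4685 and 25 in Taz-KO replicate 5301. These Taz-KO libraries, and WT replicate 5356, stood apart from the others in what follows, and called genes are followed by their result without the Taz-KO pair. Levels are CPM, the UMIs of a gene scaled to a fixed total of UMIs from nuclear genes, summed over the nuclei of a cell type in a mouse, and include unspliced RNA. Below, WT values stand in the order 4686, 4909, 5355, 5356 and Taz-KO values in the order 4685, 4910, 5300, 5301. Fold changes are after TMM scaling and can differ from the ratio of the mean CPM. The mice of a group are separate animals, and their number limits every test. In sums of nuclei a lower level per nucleus and a change in the makeup of a cell type cannot be told apart.

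Taz, the targeted gene, was lower in Taz-KO nuclei of all 5 cell types without overlap of the mice. Cardiomyocytes held it at 53.4, 49.1, 54.3 and 48.9 CPM in WT and at 39.5, 38.0, 28.8 and 30.8 CPM in Taz-KO mice. The log2 fold change was -0.71 ± 0.16 (SE), with an adjusted p of 0.0141 in the quasi-likelihood test of edgeR, used throughout, with p-values adjusted by Benjamini and Hochberg's method over every gene tested in the cell type. Without 4685 and 5301 it was -0.78, with an adjusted p of 0.048. The call was lost in nuclei with at most 5% mitochondrial UMIs, at -0.61 with an adjusted p of 0.0528. It was also lost in cluster 9 of the cardiomyocytes alone, described below, at -0.50 with an adjusted p of 0.0773. In the other cell types the log2 fold change ranged from -1.02 in endothelial cells to -0.45 in adipocytes and did not pass an adjusted p of 0.05. DESeq2 called Taz in endothelial cells, at -1.04 with an adjusted p of 0.00834. Taz was thus reduced and not at 0. Reads outside a deleted part would still be counted, and whether that holds here was not tested.

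The study compared the genotypes within each cell type. Lonp1, Hspa9, Dnaja3 and Hspe1 rose in Taz-KO cardiomyocytes, and the other 6 members did not pass the test. These 4 of 10 compare with 8.35% of the 18430 genes tested that were called higher in Taz-KO cardiomyocytes, and 0 members were called lower, against 6.44% of genes. The mice did not overlap for 5 members, the 4 named and Afg3l2, all higher in Taz-KO, which was the case for 15.1% of genes, and for 0 members lower in Taz-KO, against 6.92% of genes. The median log2 fold change of the 10 members was 0.53, and that of all genes tested was 0.01. Of the markers of other cell types in cardiomyocytes, 1 of 6 macrophage and 1 of 5 adipocyte markers were called lower in Taz-KO, and 0 of 6 fibroblast and 0 of 6 endothelial markers were called. Their sums were 150 to 305 CPM in WT and 105 to 308 CPM in Taz-KO cardiomyocytes for macrophages, 27.3 to 67.7 and 22.2 to 34.9 CPM for adipocytes, 443 to 2148 and 156 to 2303 CPM for fibroblasts, and 254 to 375 and 101 to 430 CPM for endothelial cells. Their part in the levels of the members was not tested.

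**Figure D1:**
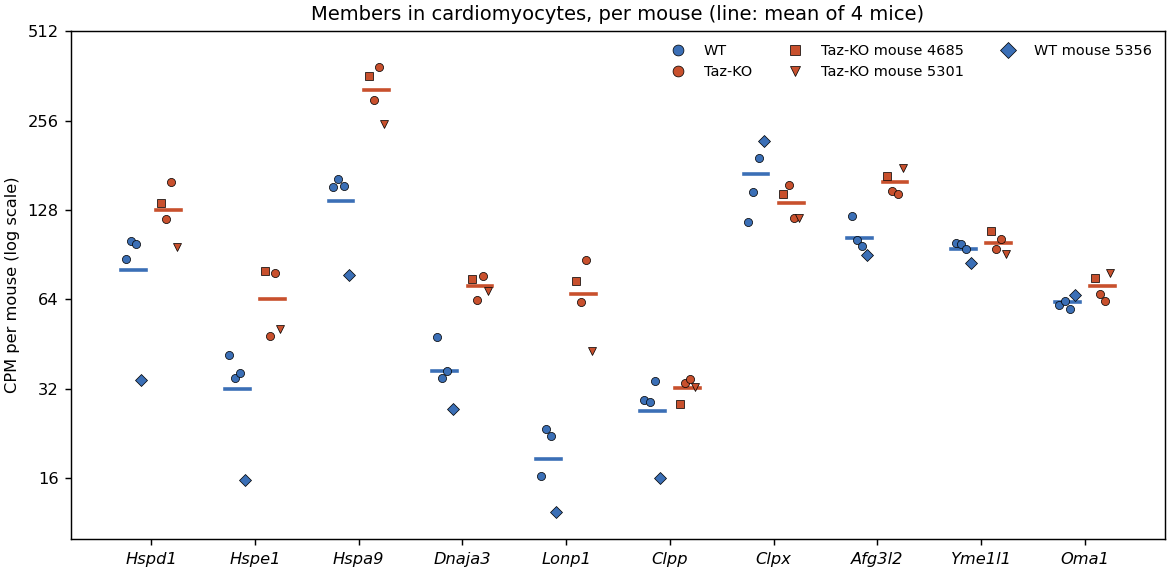
Level of each member in cardiomyocytes of each mouse, in CPM on a log scale, with WT mice in blue, Taz-KO mice in red and a line at the mean of the 4 mice. All 4 Taz-KO mice lie above all 4 WT mice for Hspe1, Hspa9, Dnaja3, Lonp1 and Afg3l2, and the groups overlap for Hspd1, Clpp, Clpx, Yme1l1 and Oma1.

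Among the chaperones, Hspa9 (ENSMUSG00000024359, chr18:34937414-34954357, minus strand) was at 153, 163, 154 and 77.3 CPM in WT cardiomyocytes and at 362, 301, 389 and 248.9 CPM in Taz-KO cardiomyocytes. The lowest Taz-KO mouse, 5301, was above the highest WT mouse, and WT replicate 5356 was far below the other WT mice. The difference was 2.17-fold (95% confidence interval 1.57 to 2.99), a log2 fold change of 1.12 ± 0.21 with an adjusted p of 0.00533. Its J-protein Dnaja3 (ENSMUSG00000004069, chr16:4639989-4707695, plus strand) was at 47.7, 34.8, 36.7 and 27.4 CPM in WT and at 75.0, 63.8, 76.9 and 68.4 CPM in Taz-KO mice. These groups were well apart, at 36.7 ± 8.40 against 71.0 ± 6.06 CPM (mean ± SD, n = 4 and n = 4). The fold was 1.77 (1.36 to 2.31), with a log2 fold change of 0.83 ± 0.17 and an adjusted p of 0.00914.

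The chaperonin genes, which share a promoter, did not pass the test together. Hspe1, the lid, was at 41.5, 34.7, 36.3 and 15.8 CPM in WT and at 79.7, 48.1, 78.8 and 50.8 CPM in Taz-KO cardiomyocytes. The highest WT mouse, 4686, came close to the lowest Taz-KO mouse, 4910. The log2 fold change was 0.86 ± 0.25 with an adjusted p of 0.0406, and this call was lost when any of 6 of the 8 mice was left out, all but WT replicates 4686 and 5356, with adjusted p of up to 0.0989. Hspd1, the barrel subunit, was at 87.8, 101, 98.2 and 34.2 CPM in WT and at 135, 119.5, 159 and 96.5 CPM in Taz-KO cardiomyocytes. Taz-KO replicate 5301 lay within the WT range, and WT replicate 5356 again lay far below the other WT mice. Its log2 fold change of 0.54 ± 0.26 (95% confidence interval -0.04 to 1.13) had an adjusted p of 0.209. The intervals of Hspd1 and Hspe1 overlap, and the difference between them was not tested.

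Of the matrix proteases, Lonp1 had the largest log2 fold change of the members in cardiomyocytes. Its levels were 16.3, 23.4, 22.3 and 12.4 CPM in WT and at 73.9, 62.8, 86.8 and 42.9 CPM in Taz-KO mice. Every Taz-KO mouse was well above every WT mouse, with 5301 the lowest of them. Lonp1 rose 3.25-fold (2.40 to 4.39), a log2 fold change of 1.70 ± 0.20 with an adjusted p of 0.000299. Leaving out any mouse kept it between 1.56 and 1.81, with adjusted p of at most 0.00181. The subunits of the other matrix protease gave no call. Clpp (chr17:56990305-56996188, plus strand), the peptidase, was at 27.1 ± 7.71 CPM in WT and 32.3 ± 2.59 CPM in Taz-KO cardiomyocytes, with an adjusted p of 0.712. Clpx (chr9:65294260-65330658, plus strand), the unfoldase, was at 117, 147, 192 and 219 CPM in WT and at 144, 155, 121 and 121 CPM in Taz-KO mice. The groups overlapped, and its log2 fold change of -0.45 ± 0.23 (-0.97 to 0.06) had an adjusted p of 0.243.

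The inner membrane proteases were not called. Afg3l2 (ENSMUSG00000024527, chr18:67404764-67449172, minus strand) was at 122, 102, 96.6 and 90.5 CPM in WT and at 166, 148, 144 and 178 CPM in Taz-KO cardiomyocytes. The mice did not overlap, but the log2 fold change of 0.52 ± 0.18 (0.11 to 0.92) had an adjusted p of 0.0879. Yme1l1 (chr2:23156369-23199260, plus strand) had a log2 fold change of -0.06 ± 0.13 after scaling and was at 94.3 ± 6.47 CPM in WT and 99.2 ± 7.78 CPM in Taz-KO cardiomyocytes. Oma1 (chr4:103313812-103371868, plus strand) was at 62.6 ± 2.83 and 71.2 ± 7.30 CPM. For both, the confidence interval of the log2 fold change spanned 0, from -0.35 to 0.24 for Yme1l1 and from -0.31 to 0.44 for Oma1, so that in either direction a change of the size seen for Lonp1, Hspa9, Dnaja3 or Hspe1 lay outside the interval.

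Without Taz-KO replicates 4685 and 5301, Lonp1 and Hspa9 remained called, with log2 fold changes of 1.83 and 1.15. Dnaja3 and Hspe1 had log2 fold changes of 0.75 and 0.79, with adjusted p of 0.0509 and 0.139. Without WT replicate 5356, Lonp1, Hspa9, Dnaja3 and Hspe1 were at 1.56, 0.93, 0.73 and 0.65. All were still called, and each value was the smallest of the fits without a single mouse. An alternative subtracted from each sum a share of 0.2 of its UMIs in the proportions of the tenth of barcodes with the fewest UMIs in the same library. This low-UMI profile is not one of free RNA alone, since in 6 of the 8 libraries all these barcodes also passed the filter for nuclei. With it, Lonp1 had a log2 fold change of 1.83, Hspa9 of 1.32 and Dnaja3 of 0.90, all still called. Hspe1 had a log2 fold change of 0.77 and an adjusted p of 0.165. In nuclei with at most 5% mitochondrial UMIs, Hspd1 was called as well, with a log2 fold change of 0.79 and an adjusted p of 0.0381. That limit left WT replicate 4909 with 8 cardiomyocytes, under the minimum of 10, so this fit also lacks 1 WT mouse. Leaving out a single mouse, 4909 included, gave no call of Hspd1, with adjusted p of 0.183 to 0.359. How much the mouse and the nuclei left out each add to the call was not tested.

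**Figure D2:**
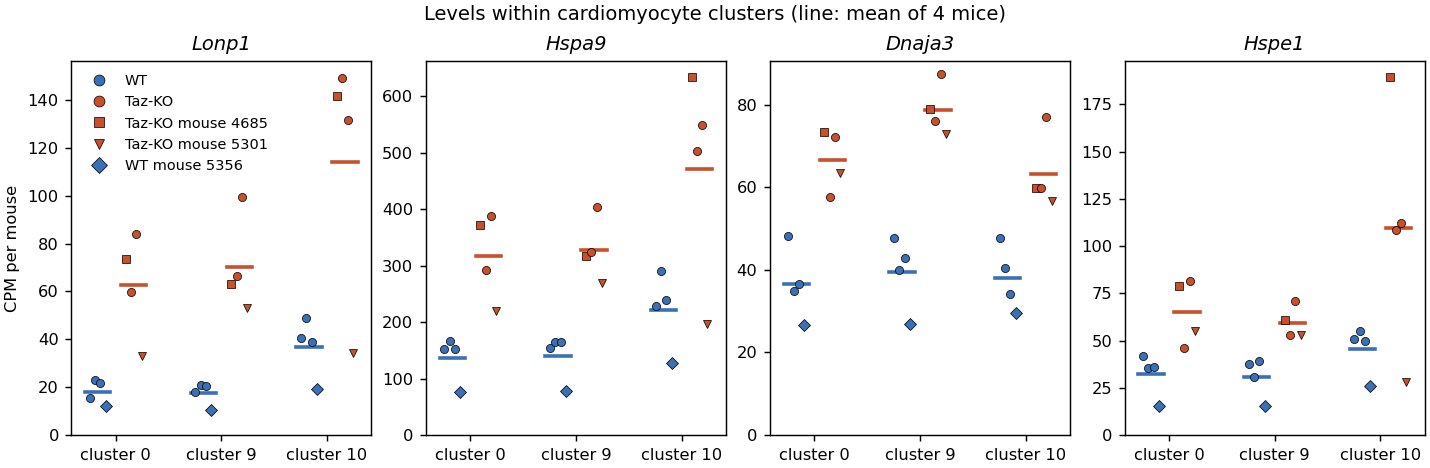
CPM of Lonp1, Hspa9, Dnaja3 and Hspe1 within the 3 largest cardiomyocyte clusters, with WT mice in blue, Taz-KO mice in red and a line at the mean of the 4 mice. In clusters 0 and 9 all Taz-KO mice lie above all WT mice for each gene, and in cluster 10, the cardiomyocyte cluster of lowest median UMI count, Taz-KO replicate 5301 lies within the WT range for Lonp1, Hspa9 and Hspe1. The share of all genes without overlap within a cluster was not counted, and Taz-KO replicate 4685 had 24 nuclei in cluster 0.

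The shares of the cardiomyocyte clusters differed between mice. Cluster 0 held 69.5% to 75.2% of WT cardiomyocytes, 51.2% and 52.8% of those of Taz-KO replicates 4910 and 5300, and 5.65% and 30.6% of those of 4685 and 5301. Cluster 9, led by Ptprt, held 6.50% to 8.38% of WT and 18.2% to 29.7% of Taz-KO cardiomyocytes. Cluster 10, with the lowest median UMI count of the cardiomyocyte clusters, held 60.7% of the cardiomyocytes of Taz-KO replicate 4685 and 36.7% of those of 5301. Lonp1 was at 18.1 ± 5.13 CPM in WT and 62.7 ± 22.0 CPM in Taz-KO nuclei of cluster 0, and at 17.4 ± 4.75 and 70.4 ± 20.1 CPM in cluster 9. Its log2 fold change was called within both clusters, at 1.62 (adjusted p 0.00104) and 1.96 (adjusted p 0.000187). Hspa9 was called in both, with log2 fold changes of 1.07 and 1.18, and so was Dnaja3, with 0.74 and 0.96. Hspe1 was called in cluster 9 (adjusted p 0.0227) and not in cluster 0 (adjusted p 0.0614). Afg3l2 was called in cluster 9, with a log2 fold change of 0.73 and an adjusted p of 0.0221, and had an adjusted p of 0.524 in cluster 0, but whether the clusters differ was not tested. The share of all genes called within each cluster was not counted. In cluster 0 the values of Taz-KO replicate 4685 rest on 24 nuclei.

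In fibroblasts, endothelial cells and macrophages, 0 members were called in either direction. Higher calls made up 0.292%, 0.28% and 0.177% of the genes tested in these cell types, and lower calls 0.0787%, 0.081% and 0.0706%. At an unadjusted p under 0.05 there were 1, 1 and 3 of the 10 members, beside 1723 of 17792, 1351 of 16051 and 902 of 14163 genes, so that the count in fibroblasts and endothelial cells was near that of all genes. The mice did not overlap for 0 members in fibroblasts and endothelial cells, where this held for 4.65% and 3.71% of genes higher in Taz-KO and for 1.63% lower in either. DESeq2 also called 0 members in each. By mouse, Lonp1, Hspa9, Hspe1 and Hspd1 shared a pattern in these cell types. Lonp1 was at 28.1, 42.4, 37.3 and 18.9 CPM in WT endothelial cells and at 104, 130.4, 131 and 23.8 CPM in Taz-KO endothelial cells. In macrophages it was at 23.7, 40.2, 32.1 and 16.03 CPM in WT and at 117, 135, 134 and 13.5 CPM in Taz-KO mice. In fibroblasts it was at 25.9, 37.7, 34.8 and 17.1 CPM in WT and at 51.1, 119.9, 116 and 12.2 CPM in Taz-KO mice. In each of these cell types, for Lonp1, Hspa9, Hspe1 and Hspd1 alike, 3 Taz-KO mice were above all WT mice and replicate 5301 was within the WT range or below it.

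The log2 fold change of Lonp1 was 1.31 ± 0.56 (adjusted p 0.489) in fibroblasts, 1.57 ± 0.44 (adjusted p 0.239) in endothelial cells and 1.77 ± 0.56 (adjusted p 0.526) in macrophages. Without Taz-KO replicate 5301, Lonp1 was called in endothelial cells, at 1.85 with an adjusted p of 0.00861, and in macrophages, at 2.12 with an adjusted p of 0.00693, and had an adjusted p of 0.0693 in fibroblasts. Without both 4685 and 5301, it was called in fibroblasts too, at 1.95 with an adjusted p of 0.0482. No other member was called in these cell types by leaving out a mouse. The share of all genes called in the fits with mice left out was not counted. Hspa9 in macrophages was at 171, 255, 209 and 97.8 CPM in WT and at 427, 396, 445 and 70.9 CPM in Taz-KO mice, again with 5301 below every WT mouse. Dnaja3 in macrophages was the exception to the overlap, at 38.4 ± 5.23 CPM in WT and 58.4 ± 12.1 CPM in Taz-KO mice with every Taz-KO mouse above every WT mouse, and had an adjusted p of 0.675. Mice did not overlap for 2.51% of genes with Taz-KO higher in macrophages, and for 1.71% with Taz-KO lower, where 0 members were found.

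Replicate 5301 also stood apart in other measures. It had 1.57% mitochondrial UMIs, against 7.01% to 23.7% in the other libraries. The summed level of the 7 cardiomyocyte markers in fibroblasts was 2991 CPM in 5301, its lowest value, against 6344 to 11568 CPM in WT mice. In endothelial cells and macrophages it was lowest in 5301 as well, at 4412 and 3871 CPM, against 8696 to 13980 and 9697 to 14385 CPM in WT mice. WT replicate 5356 had the lowest sum of the WT mice in all 3 cell types. In WT endothelial cells and macrophages these sums exceeded those of the cells' own markers, at 3076 to 4651 CPM in endothelial cells and 5363 to 7805 CPM in macrophages. The 6 fibroblast markers summed in Taz-KO replicate 4685 to 6322 CPM in endothelial cells and 7886 CPM in macrophages, above its 3078 and 3203 CPM of own markers, against 1188 to 4674 and 1221 to 4545 CPM of fibroblast markers in WT mice. All 7 markers were detected in these cell types in both genotypes, and 0 of 7 were called different between them. The part of RNA from other cells in the levels of the members in fibroblasts, endothelial cells and macrophages was not tested. With the low-UMI profile subtracted, 0 members were called there. For Lonp1 this decides little in fibroblasts and macrophages. In 5301 it was at 19.1% and 21.2% of the low-UMI level there, so a subtracted share of 0.2 took away all or nearly all of it.

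**Figure D3:**
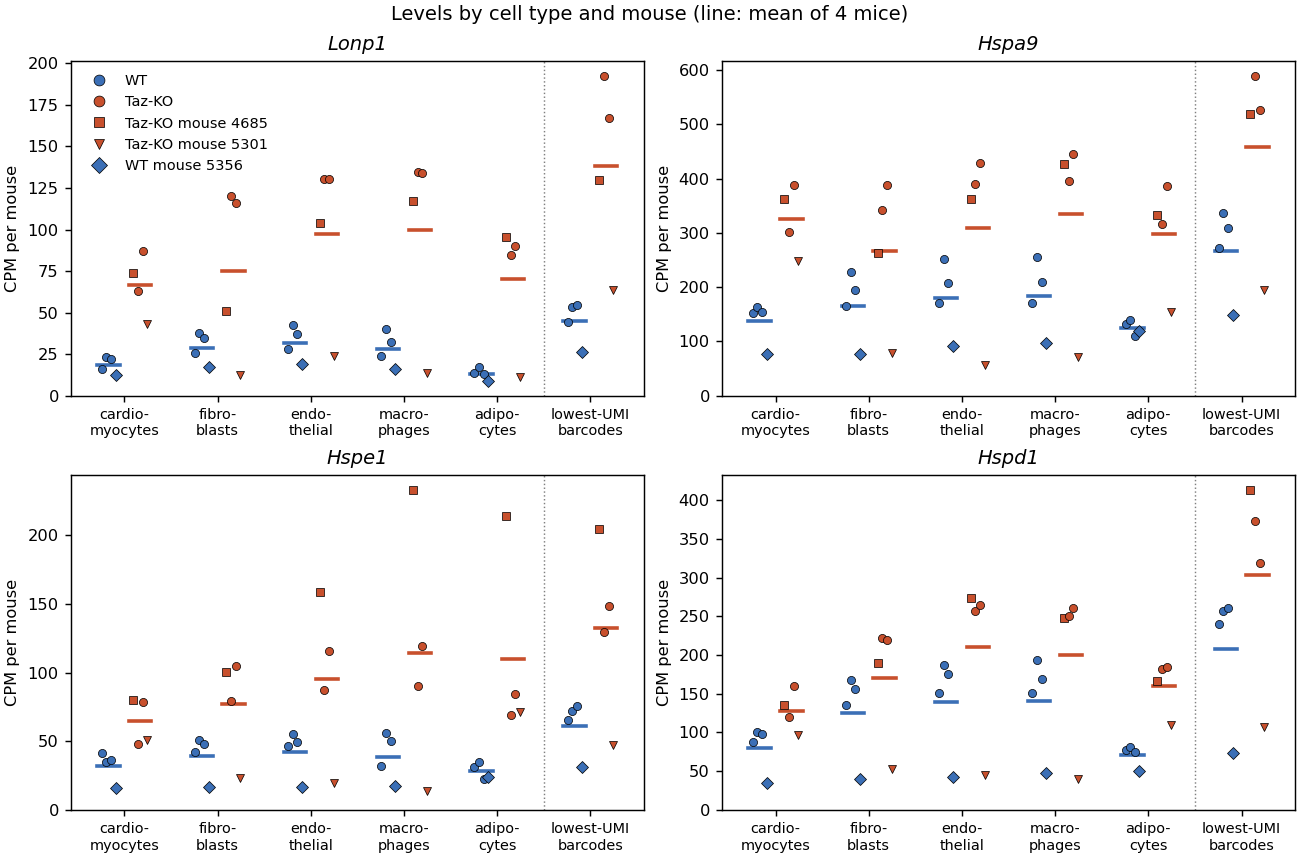
CPM of Lonp1, Hspa9, Hspe1 and Hspd1 in each mouse by cell type and, right of the dotted line, in the tenth of barcodes with the fewest UMIs, with WT mice in blue, Taz-KO mice in red and a line at the mean of the 4 mice. In fibroblasts, endothelial cells and macrophages Taz-KO replicate 5301 (triangle) lies within or below the range of the WT mice, whose lowest value for these genes is that of WT replicate 5356 (diamond), while in cardiomyocytes it lies above all WT mice for Lonp1, Hspa9 and Hspe1.

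The barcodes of fewest UMIs had high levels of Lonp1 and of some other members. Lonp1 in them was at 44.1, 53.5, 54.7 and 26.5 CPM in WT and at 129.5, 192, 167 and 63.8 CPM in Taz-KO libraries, without overlap of the groups. The lowest Taz-KO value, that of 5301, rests on 19 UMIs. Lonp1 was below its level in these barcodes in cardiomyocytes, fibroblasts, endothelial cells, macrophages and adipocytes of all 8 libraries. The same held for Hspd1 in each of these cell types but adipocytes, and for Hspa9 in each but cardiomyocytes. In cardiomyocytes it also held for Clpp and Yme1l1, while Afg3l2, Clpx and Oma1 were below their level in 0 libraries. WT cardiomyocytes had 37.0% to 46.6% of the level of Lonp1 in these barcodes, and Taz-KO cardiomyocytes 32.6% to 67.1%. WT endothelial cells had 63.7% to 79.2%, and Taz-KO endothelial cells 37.3% to 80.0%. Afg3l2 and Dnaja3 did not overlap in these barcodes either, at 62.4 ± 7.04 against 90.1 ± 6.45 CPM and at 42.7 ± 6.86 against 61.4 ± 7.60 CPM, while Hspa9, Hspe1 and Hspd1 overlapped. The share of all genes without overlap in these barcodes was not counted, so whether the members stand out there is not known. For Dnaja3 the lowest Taz-KO value, again that of 5301, rests on 17 UMIs, and the value of 5301 for Afg3l2 rests on 29 UMIs. In 6 of the 8 libraries every barcode passed the limits on UMIs and genes, and the barcodes of fewest UMIs there, at a median of 2310 to 6773 UMIs, were among those taken as nuclei unless scored as doublets. The part of free RNA in the levels was not tested.

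Adipocytes gave 4 called members, Lonp1, Hspd1, Hspe1 and Hspa9, all higher in Taz-KO mice, against 0.893% of the 10634 genes tested that were called higher. For lower calls it was 0 members against 1.74% of genes. The log2 fold change was above 0 for 8 of 10 members, and for 47.1% of genes. Lonp1 was at 13.8, 17.1, 13.3 and 8.87 CPM in WT and at 95.3, 84.4, 90.2 and 11.02 CPM in Taz-KO adipocytes. The other Taz-KO mice were far above WT and 5301 was within the WT range, but the values of 4685 and 5301 rest on 8 and 2 UMIs. The log2 fold change was 2.38 ± 0.37 with an adjusted p of 0.0145.

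Hspd1 was at 76.8, 80.5, 74.2 and 50.3 CPM in WT and at 167, 182, 184 and 110.2 CPM in Taz-KO adipocytes, without overlap. Its log2 fold change was 1.16 ± 0.23, with an adjusted p of 0.0292, and its values in 4685 and 5301 rest on 14 and 20 UMIs. Hspe1 was at 31.1, 34.7, 22.2 and 23.7 CPM in WT and at 214, 69.0, 84.3 and 71.6 CPM in Taz-KO adipocytes. The high value of 4685 rests on 18 UMIs, and the groups did not overlap without it either. The values of 5301 and of WT replicate 5356 rest on 13 and 8 UMIs. Hspe1 had a log2 fold change of 1.65 ± 0.31 and an adjusted p of 0.0233, and Hspa9 of 1.22 ± 0.27 and an adjusted p of 0.0402. Oma1 was lower in every Taz-KO mouse than in every WT mouse, at 65.9, 75.4, 65.3 and 62.1 CPM in WT and 47.6, 42.4, 35.6 and 44.1 CPM in Taz-KO adipocytes. Its log2 fold change of -0.74 ± 0.21 had an adjusted p of 0.075, and its values in 4685 and 5301 rest on only 4 and 8 UMIs. Not overlapping and lower in Taz-KO was 5.44% of genes in adipocytes, and 3.15% were not overlapping and higher, where 4 members were found, Hspd1, Hspe1, Hspa9 and Afg3l2.

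The calls in adipocytes rest on few nuclei. The 7 cardiomyocyte markers, all detected, summed to 11324 to 16611 CPM in WT adipocytes and to 2952 CPM in Taz-KO replicate 5301 up to 13119 CPM in 4910, above the 881 to 3066 CPM of the 5 adipocyte markers themselves in WT and 488 to 2380 CPM in Taz-KO mice. None of these 7 was called between genotypes, and 1 of 6 fibroblast markers was called lower in Taz-KO. The adipocytes of 4685 had the lowest sum of adipocyte markers, 488 CPM, with 6765 CPM of fibroblast markers, against 1694 to 3007 CPM in WT adipocytes, and 1989 CPM of endothelial markers, against 559 to 1107 CPM. The part of RNA from other cells was not tested. All 4 calls were lost without WT replicate 4686, 4909 or 5355 or without Taz-KO replicate 4910 or 5300, with log2 fold changes of Lonp1 between 2.24 and 2.5001 in these 5 fits. Without both Taz-KO replicates 4685 and 5301 there were 5 calls, the same 4 with Lonp1 at 2.62, and Oma1, lower at -0.76 with an adjusted p of 0.0389. The share of all genes called in that fit was not counted. With the low-UMI profile subtracted, 0 were called, and Lonp1 was too low to be tested. The log2 fold changes were then 1.84 for Hspd1 (adjusted p 0.0913), 2.14 for Hspe1 (adjusted p 0.0998) and 1.51 for Hspa9 (adjusted p 0.0998), above those without subtraction. With nuclei typed one by one from a pair of markers, 0 were called as well in a fit that lacks 4685, which kept fewer than 10 adipocytes, and the log2 fold changes were below those of the clusters. They were 1.601 for Lonp1 (adjusted p 0.923), 0.28 for Hspd1, 0.88 for Hspe1 and 0.61 for Hspa9 (adjusted p 0.9997 for each of these 3).

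**Figure D4:**
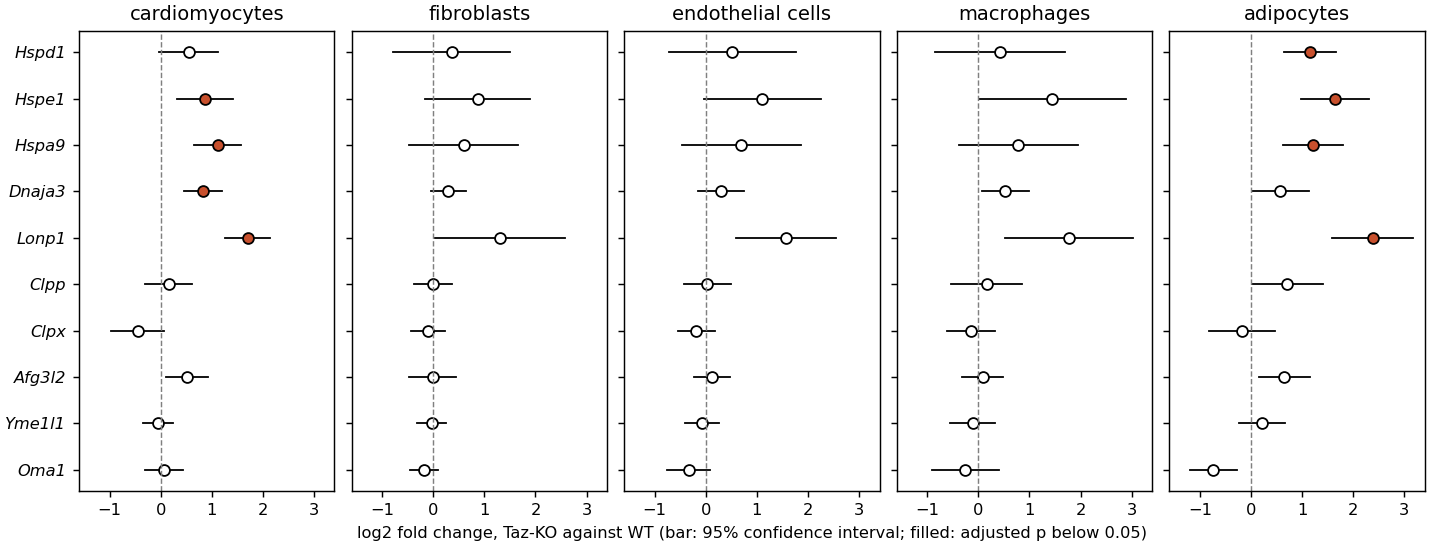
Log2 fold change of each member between Taz-KO and WT mice in 5 cell types, with bars for the 95% confidence interval and filled points for an adjusted p below 0.05. Filled points are Hspe1, Hspa9, Dnaja3 and Lonp1 in cardiomyocytes and Hspd1, Hspe1, Hspa9 and Lonp1 in adipocytes, and the intervals of Hspd1, Hspe1, Hspa9 and Lonp1 are wider in fibroblasts, endothelial cells and macrophages than in cardiomyocytes and adipocytes.

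A call in cardiomyocytes and none in another cell type does not show that the effects differ, so the difference itself was tested by edgeR with the mouse as a block. For 0 of 10 members did the genotype effect differ between cardiomyocytes and fibroblasts, endothelial cells or macrophages, where 4.15%, 2.29% and 0.931% of genes had such a difference. For Lonp1, the log2 fold change in the other cell type minus that in cardiomyocytes was -0.62 for fibroblasts (95% confidence interval -1.598 to 0.36). It was -0.16 for endothelial cells (-0.90 to 0.59) and -0.02 for macrophages (-1.06 to 1.02). These intervals include differences of over 1 in log2 units in fibroblasts and macrophages. Of the 10 members in the 3 comparisons, Dnaja3 against fibroblasts alone had an unadjusted p under 0.05, with a difference of -0.56 (-0.94 to -0.17), an unadjusted p of 0.00916 and an adjusted p of 0.119. A test of adipocytes against cardiomyocytes was not run.

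The order of levels across the 5 cell types in WT mice is a description. Afg3l2 and Clpx had their highest means in cardiomyocytes, at 103 ± 13.8 and 169 ± 45.7 CPM, with adipocytes next and within the spread. The WT ranges of Clpx in both lay above those in fibroblasts, endothelial cells and macrophages. Oma1 was highest in macrophages, at 88.6 ± 8.35 CPM, above the range in adipocytes at 67.2 ± 5.73 CPM, and lowest in fibroblasts at 41.4 ± 2.74 CPM. Yme1l1 was lowest in cardiomyocytes, at 94.3 ± 6.47 CPM, below the range in the other cell types, which were between 116 and 136 CPM in the mean. For Hspd1, Hspe1, Hspa9, Lonp1, Clpp and Dnaja3 each cell type overlapped the next in order, and the means of Lonp1 ran from 31.7 ± 10.3 CPM in endothelial cells to 13.3 ± 3.39 CPM in adipocytes. In pericytes, which were not tested, Lonp1 was at 26.2, 38.9, 40.9 and 16.1 CPM in WT and at 72.9, 137.5, 132 and 21.4 CPM in Taz-KO mice, with 5301 within the WT range on 7 UMIs. In lymphatic endothelial cells, also not tested, 5301 was at 40.2 CPM on 4 UMIs, above the WT range of 14.5 to 35.3 CPM. In mesothelial cells, not tested either, the lowest Taz-KO mouse was at 17.2 CPM, below the WT range of 17.7 to 34.6 CPM.

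The genes most like the called members, by Pearson r of log2(CPM + 1) over 40 sums (8 mice in 5 cell types, among 7990 genes with a mean of at least 20 CPM), are a description, since the sums share libraries and depth. For Lonp1 they were Ghitm (r = 0.94), the muscle actin Acta1 (r = 0.93) and the mitochondrial carrier Slc25a39 (r = 0.93), and Hspa9 was the nearest member (r = 0.91). For Hspa9 they were Timm10 (r = 0.96), Vdac3 (r = 0.95) and Slc25a39 (r = 0.93), followed among the members by Hspd1 (r = 0.92) and Hspe1 (r = 0.91). For Dnaja3 they were Rabggtb (r = 0.87), Mrps17 (r = 0.81) and Eprs (r = 0.81). Lonp1 and Oma1 had an r of -0.30.

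Other genes of mitochondrial protein quality control were read from 6 lists, whose counts stand beside the 8.35% and 6.44% of genes called higher and lower in cardiomyocytes and a median log2 fold change of 0.01. Of 11 co-chaperones and other mitochondrial chaperones, 2 rose in Taz-KO cardiomyocytes and 0 fell. These were the disaggregase Clpb, at 63.1 ± 4.00 CPM in WT and 138 ± 21.4 CPM in Taz-KO mice (log2 fold change 1.02 ± 0.20, adjusted p 0.00655), and Grpel2, a nucleotide exchange factor of Hspa9, at 17.9 ± 1.86 and 39.3 ± 5.02 CPM (1.02 ± 0.17, adjusted p 0.00299). Both kept their call without 4685 and 5301. The paralog Grpel1 had a log2 fold change of 0.12 ± 0.34. The median of the list was 0.36. Of 14 other mitochondrial proteases and peptidases, 0 were called and the median was 0.09. Spg7, the partner of Afg3l2 in the m-AAA protease, had a log2 fold change of -0.02 ± 0.13.

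Of 8 scaffolds, regulators and substrates of the proteases, 2 fell in Taz-KO cardiomyocytes. Dele1, the substrate of Oma1 that carries mitochondrial stress to the cytosol, was at 40.2 ± 5.50 CPM in WT and 27.1 ± 1.37 CPM in Taz-KO mice (log2 fold change -0.69 ± 0.15, adjusted p 0.0122, and 0.0351 without 4685 and 5301). Pink1, a kinase that marks damaged mitochondria, was at 58.6 ± 19.3 and 34.3 ± 9.70 CPM (-0.90 ± 0.23, adjusted p 0.0245), with overlapping mice and an adjusted p of 0.0991 without 4685 and 5301. The median of the list was 0.00. Of 17 genes of the import machinery, 2 rose, the intermembrane space chaperones Timm9 (0.55 ± 0.17, adjusted p 0.0469) and Timm10 (0.79 ± 0.24, adjusted p 0.0499), and the median was 0.08. Timm9 was called in 2 and Timm10 in 1 of the 8 fits without a mouse. Without 4685 and 5301, Timm9 lost its call (adjusted p 0.171) and Timm10 had an adjusted p of 0.0476.

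Of 5 factors tied to the mitochondrial stress response, 2 rose in Taz-KO cardiomyocytes. Atf5, a transcription factor tied to the mitochondrial unfolded protein response, was at 15.4 ± 7.99 CPM in WT and 64.5 ± 17.5 CPM in Taz-KO mice (log2 fold change 1.94 ± 0.35, adjusted p 0.00525). Ddit3, which encodes CHOP and has another gene identifier in the files that was not used, was at 29.0 ± 9.57 and 73.7 ± 17.3 CPM (1.21 ± 0.22, adjusted p 0.00462). For both the mice did not overlap, and the call was kept in all 8 fits without a mouse and without 4685 and 5301 (adjusted p 0.0135 for Atf5 and 0.0340 for Ddit3). Atf4 had a log2 fold change of 0.61 ± 0.25 and an adjusted p of 0.142, and the median of the list was 0.61. Of 11 cytosolic heat shock proteins, 0 were called in cardiomyocytes, with a median of 0.29. Hspa8, the cytosolic relative of Hspa9, had a log2 fold change of 0.21 ± 0.41.

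In fibroblasts, endothelial cells and macrophages, 0 genes of these 6 lists were called by edgeR, with 3, 5 and 6 of 66 genes tested at an unadjusted p under 0.05 (the counts over all genes stand above), and DESeq2 called 0, 1 and 1. Log2 fold changes were above 0 for 12, 17 and 17 of 17 genes of the import machinery, for 11, 11 and 11 of 11 cytosolic heat shock proteins and for 9, 9 and 10 of 11 co-chaperones. They were above 0 for 6, 8 and 7 of 14 other proteases, for 4, 4 and 5 of 8 scaffolds and substrates and for 4, 3 and 4 of 5 stress factors, where 50.2%, 50.9% and 52.2% of all genes were. In adipocytes 4 of 63 genes tested were called higher and 0 lower, beside 0.893% and 1.74% of all genes, and 29 of 63 had an unadjusted p under 0.05, beside 2256 of 10634 genes. Called were Atf5 (log2 fold change 1.87 ± 0.33, adjusted p 0.0223), Hsp90aa1 (1.68 ± 0.30, adjusted p 0.0228), Timm10 (1.53 ± 0.32, adjusted p 0.0319) and Phb, a scaffold of the inner membrane proteases (1.12 ± 0.24, adjusted p 0.0365). Each was called in 3 of the 8 fits without a mouse, and without both 4685 and 5301, with adjusted p of 0.00317, 0.0055, 0.0101 and 0.0143 in this order. Medians in adipocytes were 0.60 for the co-chaperones, 0.11 for the other proteases, 0.24 for the scaffolds and substrates, 0.72 for the import machinery, 1.17 for the stress factors and 1.08 for the cytosolic heat shock proteins, against -0.04 for all genes tested.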

How the data were processed

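Libraries were made with 10x 3' v3.1 chemistry. Per the submitters' processing notes, reads were processed with Cell Ranger 6.0.1 on mm10, and per the methods of the study intronic reads were included. The authors deposited UMI counts as 1 matrix of genes by barcodes for each mouse. The methods also correct for ambient RNA and doublets, and whether the deposited values precede this is not given in the sources used here, though all were whole numbers.

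Kept were barcodes of 800 UMIs and 250 genes or more. Likely doublets were scored in each mouse and removed, up to 10% of its barcodes. Nuclei were clustered without the members, the listed genes and Taz on 15 principal components corrected for the mouse, by the Leiden method (Python 3.11.15, python-igraph 0.11.9, scikit-learn 1.9.0, numpy 2.4.6, scipy 1.17.1). Of 39 clusters, 19 were named from the marker lists by a rule set after their scores were seen, and 38779 nuclei stayed unnamed. Mitochondrial genes were left out of all sums.

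For each cell type, the UMIs of all its nuclei in a mouse were added up where there were at least 10 nuclei. Genotypes were compared with edgeR 4.0.16 (R 4.3.3) by TMM scaling, filterByExpr and the robust quasi-likelihood F test. P-values were adjusted over all genes tested in a cell type, and a call is an adjusted p under 0.05. The difference between cell types was an interaction term with the mouse as a block. SE is the log2 fold change divided by the root of F. The test was also run on simulated counts, drawn independently for each gene and mouse. They held no shift shared by the genes of a library, so they say nothing on libraries that stand apart. Alternatives were DESeq2 1.42.0, RLE scaling, no filter, mice left out, subtraction of the low-UMI profile, typing by marker pairs, doublets kept, a limit on mitochondrial UMIs and the thresholds of the study. The fits of cardiomyocyte clusters 0 and 9 alone were chosen after seeing the data.

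Members and lists were chosen with earlier results of these data known. Named genes are the members, Taz, at most 3 called genes per list and cell type by smallest p, and the 3 genes most like each of the 3 members of smallest p in cardiomyocytes. Spg7, Grpel1, Atf4, Hspa8 and the motifs were chosen after values were seen. Positions of genes follow GENCODE vM21, promoter windows RefSeq, both on GRCm38.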

Additional observations from a re-analysis of the deposited data

Results flagged for a closer look

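Among 100 groups of 4 mice (10 members, 5 cell types, 2 genotypes), 10 had a mouse set apart from the other 3 by more than Dixon's 95% limit, which chance gives in about 1 of 20 groups. The members are not independent of each other here, since 7 of the 10 cases are Taz-KO replicate 5301.

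In endothelial cells, Taz-KO replicate 5301 was far below the other Taz-KO mice for Hspd1, at 45.5 CPM with the next at 256.4 CPM, for Clpp, at 29.2 CPM with the next at 39.3 CPM, and for Clpx, at 61.7 CPM with the next at 88.2 CPM. In macrophages it was low for Lonp1, at 13.5 CPM with the next at 117 CPM, for Hspd1, at 39.6 CPM with the next at 248 CPM, and for Hspa9, at 70.9 CPM with the next at 396 CPM. In adipocytes it was low for Lonp1, at 11.02 CPM with the next at 84.4 CPM, on 2 UMIs. WT replicate 5356 was low for Hspa9 in cardiomyocytes, at 77.3 CPM with the next at 153 CPM, and for Dnaja3 in macrophages, at 30.6 CPM with the next at 40.2 CPM. Taz-KO replicate 4685 was high for Hspe1 in adipocytes, at 214 CPM with the next at 84.3 CPM, on 18 UMIs.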

How the results depend on the processing

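In cardiomyocytes 4 members were called, and 3 to 4 without any single mouse. The count was 2 with both Taz-KO libraries with the fewest barcodes left out, and 1, Lonp1, at the thresholds of the study (adjusted p under 0.001 and a log2 fold change over 0.58). It was 3 to 5 under DESeq2, RLE normalization, no filter, low-UMI subtraction, marker pairs, doublets kept, at most 5% mitochondrial UMIs (a fit that also lost WT replicate 4909) and clusters 0 or 9 alone. In fibroblasts, endothelial cells and macrophages the 0 calls became 1, Lonp1, with both libraries of few barcodes left out. Without single mice the count ranged from 0 to 1 in endothelial cells and macrophages, the 1 being without Taz-KO replicate 5301, and stayed at 0 in fibroblasts. In adipocytes the 4 calls ranged from 0 to 4 without single mice, and were 0 with low-UMI subtraction, 0 with nuclei typed by marker pair and 0 at the thresholds of the study. The fit on marker pairs also lacked Taz-KO replicate 4685, whose absence alone left 4 calls. The share of all genes called under each alternative was not counted, and the cause of these changes was not tested. For differences between cell types the count was 0 in all 3 comparisons under every alternative run. Of 857 log2 fold changes of members and Taz under alternatives, 39 lost and 9 gained a call, no called value changed sign, and 30 values without a call did. The limit of 5% mitochondrial UMIs left too few nuclei to fit cell types other than cardiomyocytes. No paired analysis was possible because the numbers in the labels name single mice and are not shared between genotypes. Depth limits adipocytes most, where as few as 2 UMIs lie behind a level of Lonp1.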
